A study of Mus musculus with 21 samples.

Results

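The c-Jun N-terminal kinase (JNK) stress pathway was described in the neocortex of rNLS8 mice through 10 genes: the JNK genes Mapk8, Mapk9 and Mapk10, the JNK kinases Map2k4 and Map2k7, the upstream kinases Map3k12 and Map3k13, the scaffolds Mapk8ip1 and Mapk8ip2, and Jun. They were found by symbol and make up 10 of the 48474 rows of the count table, and all 10 were among the 18248 genes with enough counts to be tested. These genes were chosen on the measured difference between rNLS8 and wild-type mice. That difference is therefore given for them as a description: its standard errors and intervals show precision, and no test of these genes rests on it.

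The data comprised bulk RNAseq of 21 mice, 11 wild-type (labelled WT) and 10 rNLS8 (labelled TG), in 2 batches given by the labels. Batch A held 4 wild-type and 3 rNLS8 mice, and batch B held 7 of each. rNLS8 mice are bigenic for NEFH-tTA line 8 and tetO-hTDP-43ΔNLS line 4 on a backcrossed C57BL/6J background. Without doxycycline they express human TDP-43 without its nuclear localization signal from the neurofilament heavy chain promoter, nearly only in neurons, and the wild-type mice were monogenic littermates. All mice of both genotypes had received a non-targeting antisense oligonucleotide (ASO) into a cerebral ventricle, 350 µg in 10 µL, at 17 to 19 weeks of age. All were fed doxycycline at 200 mg/kg until 2 weeks after the injection, and tissue was taken after a further 3 weeks without it. Sex was not given. The labels name neocortex, whereas the study's text names both brain cortex and hippocampus for rNLS8 mice.

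JNKs are mitogen-activated protein kinases that respond to cellular stress. In neurons, the kinases DLK (Map3k12) and LZK (Map3k13) sense damage to the axon and the cytoskeleton and activate MKK4 (Map2k4) and MKK7 (Map2k7), which phosphorylate the JNKs. JNK-interacting proteins hold these kinases together on cargo that moves along the axon. Active JNK phosphorylates the transcription factor c-Jun, which pairs with other AP-1 proteins, and it also phosphorylates microtubule-binding proteins. The pathway is known for its part in both regeneration and death of injured neurons. RNAseq measures transcripts of these genes, and phosphorylation was not measured.

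Values below are normalized counts per mouse, that is counts scaled to the mean effective library size of all mice. Total counts per mouse lay from 20700912 to 22263809. The mouse gene Tardbp encodes TDP-43 and has a further copy row. Its first row was at 2253 to 2827 in wild-type and 2363 to 5053 in rNLS8 mice (log2 fold change 0.62, SE 0.071, edgeR adjusted p = 1.50e-07). The copy row was at 1577 to 1929 and 1477 to 3343 (0.55, SE 0.074, adjusted p = 1.85e-06), with 1 rNLS8 mouse below every wild-type mouse. In batch A alone the copy row did not pass (0.21, adjusted p = 0.359), and in batch B it did (0.71, adjusted p = 7.71e-10). Reads were aligned to the mouse genome, so how much of this signal comes from the human transgene was not tested. For the first Tardbp row, batch A alone was at 0.26 (edgeR adjusted p = 0.191) and batch B at 0.79 (adjusted p = 1.42e-10). The interaction of that row was 0.56 (B minus A, unadjusted p = 7.31e-06, adjusted p = 0.133). The lowest rNLS8 value in the first Tardbp row belonged to T61340 of batch A and lay within the wild-type range. T61340 had the lowest Mapk9 count of all mice (1566), but Mapk9 was chosen on the genotype difference and cannot check the genotype. T61340 also stood apart in another way: its deviation from its group correlated with exon length over 16121 genes (Spearman's rho -0.479), compared with -0.181 to 0.329 in the other mice. T60303, also an rNLS8 mouse of batch A, had the lowest summed neuron markers, and values without both mice are given where a call is lost or for the genes that stood furthest apart.

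Neuron markers moved with genotype. Their summed level was 98674 to 127497 in wild-type and 67846 to 86993 in rNLS8 mice, without overlap. Of the 5 neuron markers, Snap25 (-0.75), Syt1 (-0.53) and Map2 (-0.44) were lower on the log2 scale, and Rbfox3 and Tubb3 did not pass the test. None of the 56 marker genes of neurons, glia, vessels, blood or neighboring regions was at 0 in any mouse. Summed markers of neighboring regions varied widely between mice. Choroid plexus markers were at 287 to 45663 in wild-type and 503 to 23534 in rNLS8 mice. Striatum markers were at 704 to 7437 and 867 to 6797. Of 4 striatum markers, Drd1 alone passed between genotypes (-0.66, edgeR adjusted p = 0.0362). Drd1 (0.97, adjusted p = 0.0143) and Rgs9 (adjusted p = 0.0203) were higher in batch B. The part of neighboring tissue in the values below was not tested. Of the 6 astrocyte markers, 5 were lower and Gfap was higher by 1.03, and 4 of 6 microglia markers were higher and 1 lower. Over all genes tested, 44.7% passed, 21.7% as lower and 23.0% as higher. None of 6 oligodendrocyte markers passed. In bulk tissue, fewer neurons and less RNA per neuron cannot be told apart, and the part of either in the values below was not tested.

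Among the JNK genes, Mapk9 (JNK2) stood furthest from wild-type. Its 11 wild-type mice were at 4574 at the lowest, 4851 at the median and 5074 at the highest, and its 10 rNLS8 mice at 1566, 2060 and 2351. The groups did not overlap, and the highest rNLS8 mouse was far below the lowest wild-type mouse. Wild-type mice averaged 4834 ± 156 (SD, n = 11) and rNLS8 mice 2004 ± 244 (SD, n = 10). The log2 fold change between them was -1.28 ± 0.051 (SE). This corresponds to 41.1% of the wild-type level, or 2.43-fold lower. Of all 18248 genes tested, 31 had a lower log2 fold change. The 95% interval was -1.39 to -1.18, and without T61340 and T60303 the value was -1.22.

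Mapk10 (JNK3), the JNK known for its restriction mainly to the nervous system, was lower to a smaller extent. Wild-type mice were at 6691, 8292 and 9175, and rNLS8 mice at 5370, 6234 and 7546 (lowest, median and highest). Of the 10 rNLS8 mice, 8 lay below every wild-type mouse, and the highest of them was T61340. The log2 fold change was -0.35 ± 0.057 (SE), or 78.4% of wild-type. In batch B, where no rNLS8 mouse exceeded 6945 and no wild-type mouse was below 7488, the groups did not overlap.

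Mapk8 (JNK1) differed least among the JNK genes. It was at 1914, 2038 and 2236 in wild-type and at 1506, 1905 and 2062 in rNLS8 mice, and 5 rNLS8 mice lay below every wild-type mouse. The log2 fold change was -0.16 ± 0.045 (SE). It was -0.084 when libraries were scaled by their total count only, a setting under which the median of all genes was 0.076.

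**Figure D1:**
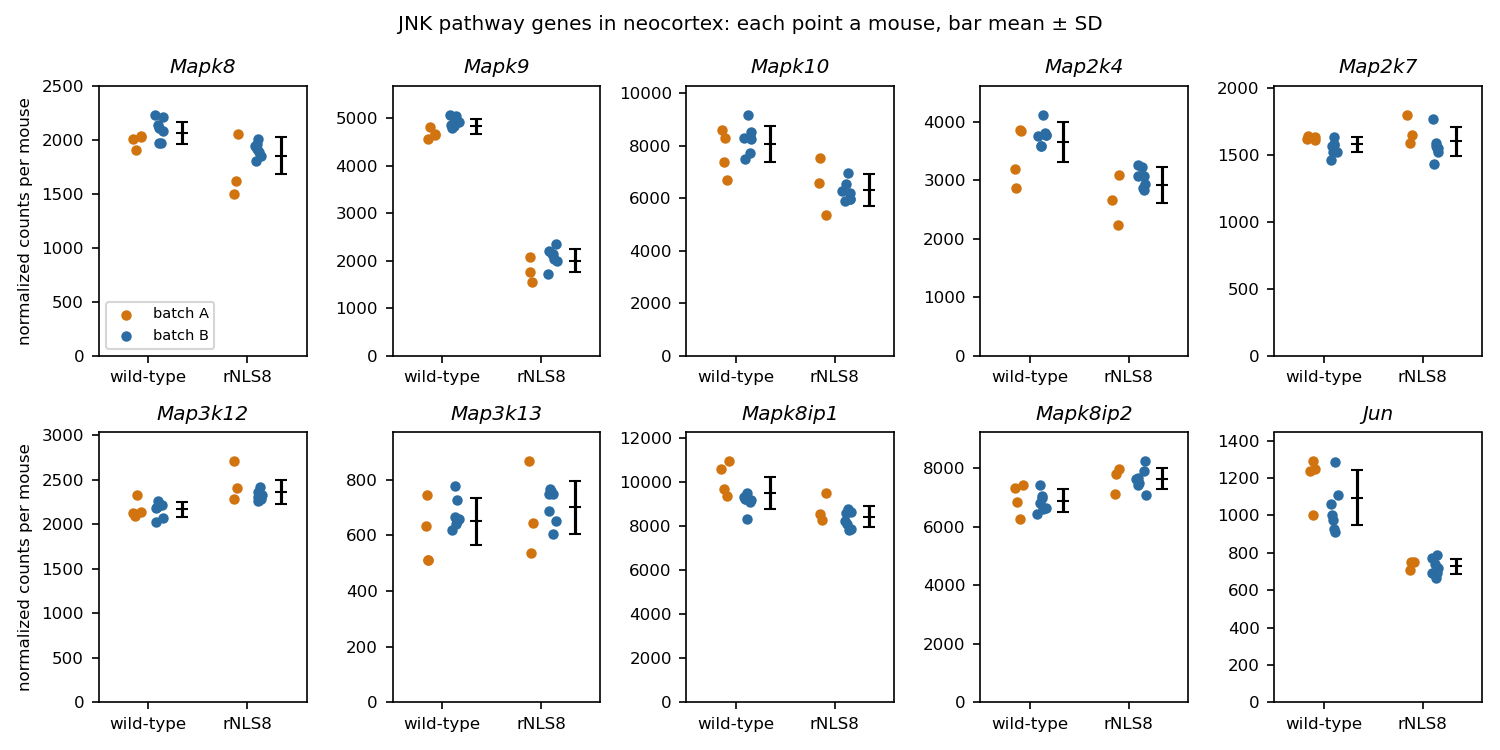
Normalized counts of the 10 JNK pathway genes, 1 point per mouse (orange batch A, blue batch B), by genotype, each panel with its own y axis from 0; bars are the mean and SD (n = 11 wild-type, n = 10 rNLS8). Mapk9 and Jun are the panels in which the genotypes do not overlap.

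The 3 JNK genes lie on different chromosomes and differ widely in size (GRCm38, GENCODE annotation). Mapk9 lies at chr11:49846751-49886421 on the plus strand and spans 39.7 kb. Mapk8 lies at chr14:33377898-33447158 on the minus strand (69.3 kb), and Mapk10 at chr5:102907948-103211334 on the minus strand (303.4 kb). The JNK gene that differed most was also the shortest of them. TDP-43 is known to bind UG-rich RNA, so the longest run of TG repeats was read from the annotated mature transcripts. For Mapk9 it was 3 repeats, and 75.5% of 21951 protein-coding genes have at least that. Mapk8 also had 3 and Mapk10 had 4. The longest runs of the pathway were in a 527-base transcript of Map2k4 (19 repeats, a length that 2.88% of genes reach) and in Map3k13 (17 repeats, 3.7%). Introns were not searched, and the runs were not matched for transcript length. Binding was not measured, so whether TDP-43 acts on these transcripts was not tested.

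Per transcript length, Mapk9 and Mapk10 were alike in wild-type mice and apart in rNLS8 mice. In TPM (counts per length of the union of exons, scaled to a common total in each mouse), wild-type mice had overlapping levels of Mapk10 (143 ± 12.03) and Mapk9 (140 ± 6.21), and the level of Mapk8 was 35.6 ± 2.24 (SD, n = 11). In rNLS8 mice (n = 10) the levels were 114 ± 8.01 for Mapk10, 59.4 ± 8.43 for Mapk9 and 32.6 ± 3.70 for Mapk8. The summed level of the JNK genes was 318 ± 16.7 TPM in wild-type and 206 ± 14.7 TPM in rNLS8 mice, or 64.6%. The ranges were 293.5 to 344.6 and 181.3 to 227.7.

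Of this sum, Mapk9 made up 44.1% ± 1.61 in wild-type mice and 28.8% ± 2.72 in rNLS8 mice. Mapk10 made up 44.7% ± 2.04 and 55.4% ± 3.59, and Mapk8 11.2% ± 0.565 and 15.8% ± 1.38. The ranges of the Mapk9 share were 42.4% to 47.0% in wild-type and 22.2% to 32.2% in rNLS8 mice. The highest Mapk10 share (65.2%) and the lowest Mapk9 share were both those of T61340. With the longest transcript as length, a choice made after the data were seen, the Mapk9 share was 41.2% and 26.2%.

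**Figure D2:**
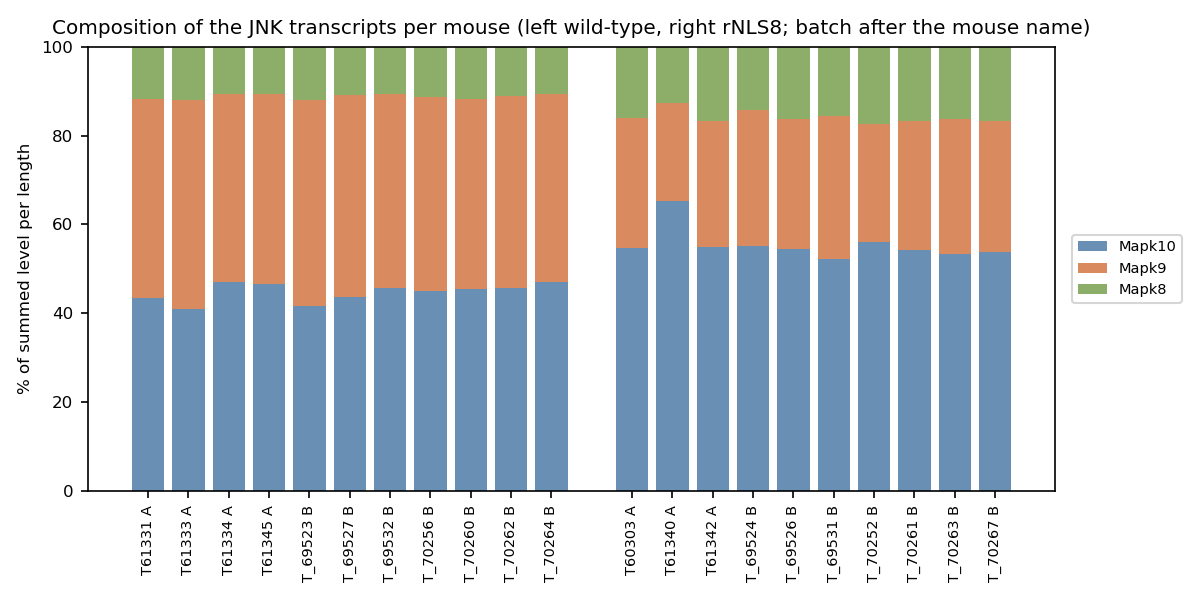
Share (%) of Mapk10, Mapk9 and Mapk8 in their summed TPM, 1 bar per mouse, wild-type on the left and rNLS8 on the right, with the batch after the mouse name. The Mapk9 band is 42.4% to 47.0% in wild-type and 22.2% to 32.2% in rNLS8 mice.

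The promoters of 9 of the 10 genes were matched in RefSeq (GRCm38.p6), as 14 windows from 250 bases before to 50 after a start site. They were searched on both strands for the AP-1 heptamer TGACTCA, the cyclic AMP response element TGACGTCA and the Jun-type octamer TGACATCA. These occur in 5.20%, 1.79% and 3.62% of 32851 mouse promoter windows of the same length. Of the 14 windows, 2 held a match. The stretches around them, from Mapk10 and from Jun itself, are shown because they are the only matches among these windows. Capitals mark the match. The Mapk10 stretch is chr5:103211335-103211454 and the Jun stretch is chr4:95052223-95052342, both on the minus strand. The matches lie 29 and 45 bases before the start sites. A match describes letters only, and binding was not measured.
Mapk10 promoter: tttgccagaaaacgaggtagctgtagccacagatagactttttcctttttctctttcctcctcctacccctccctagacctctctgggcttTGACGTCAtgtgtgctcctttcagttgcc
Jun promoter: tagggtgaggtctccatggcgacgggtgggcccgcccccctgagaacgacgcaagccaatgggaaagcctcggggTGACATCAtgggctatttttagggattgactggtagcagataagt

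Jun encodes c-Jun, the transcription factor after which the kinases are named, and its promoter octamer is known as a site through which c-Jun acts on its own gene. Jun was at 910, 1060 and 1289 in wild-type mice and at 667, 730 and 786 in rNLS8 mice. The groups did not overlap, and rNLS8 mice lay close together (SD 38.5, n = 10) compared with wild-type mice (SD 146, n = 11). The means were 1095 and 728, and the log2 fold change was -0.58 ± 0.060 (SE, 95% interval -0.70 to -0.45), which is 67.0% of wild-type. In batch A the log2 fold change was -0.67 and in batch B -0.53. Of all genes tested, 640 had a lower value. An antisense gene, Junos, shares 232 exon bases with Jun and differed by -0.055 without passing the test (edgeR adjusted p = 0.755). Whether the reads were counted by strand is not given in the sources used here, so reads of the pair could not be separated.

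The kinases that activate the JNKs were unlike each other. Map2k4, whose product MKK4 also activates p38 kinases, was at 2873, 3774 and 4120 in wild-type mice and at 2230, 3006 and 3260 in rNLS8 mice. The log2 difference was -0.33 ± 0.056 (SE). In batch B the highest rNLS8 mouse (3260) was below the lowest wild-type mouse (3590). Map2k7, whose product MKK7 acts on JNKs alone, was at 1461, 1577 and 1640 in wild-type and at 1435, 1576 and 1798 in rNLS8 mice. Here the difference was 0.025 ± 0.036 on the log2 scale (SE, 95% interval -0.048 to 0.099), and the groups overlapped, with 3 rNLS8 mice above and 1 below every wild-type mouse. Scaled by total count it was 0.10. Map2k7 shares 1349 exon bases with Gm49320, a protein-coding gene on the same strand. The count table has no row of that symbol, so reads of the pair could not be separated.

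Both upstream kinases had higher means in rNLS8 mice. Map3k12 (DLK) was at 2020, 2180 and 2327 in wild-type and at 2260, 2315 and 2705 in rNLS8 mice. The log2 fold change was 0.13 ± 0.036 (SE). All rNLS8 mice lay above the wild-type median, with T61340 the highest, and without T61340 and T60303 the value was 0.11. Map3k12 shares 1573 exon bases with the antisense gene Pcbp2, which differed by 0.018 and did not pass the test. Map3k13 (LZK) was at 512, 653 and 778 in wild-type and at 538, 718 and 865 in rNLS8 mice. The difference of 0.10 ± 0.077 (SE) had a 95% interval of -0.055 to 0.26. A noncoding gene on the same strand, 1300002E11Rik, shares 227 exon bases with Map3k13 and was higher by 0.97 (SE 0.080, edgeR adjusted p = 8.67e-10).

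The scaffolds moved in opposite directions. Mapk8ip1 (JIP1), which links JNK modules to kinesin, was at 8340, 9307 and 10934 in wild-type and at 7836, 8418 and 9487 in rNLS8 mice (log2 fold change -0.16 ± 0.039, SE). Scaled by total count it was -0.087. Mapk8ip2 (JIP2), a related scaffold, was at 6284, 6844 and 7451 in wild-type and at 7101, 7651 and 8241 in rNLS8 mice (log2 fold change 0.15 ± 0.039, SE). For Mapk8ip2, 7 rNLS8 mice lay above every wild-type mouse.

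The levels of the genes differed widely per length. In wild-type mice Mapk8ip1 was highest at 402 ± 30.2 TPM, followed by Mapk8ip2 (238 ± 12.3) and Map2k4 (154 ± 14.4). Map2k4, Mapk10 and Mapk9 had overlapping ranges. Map2k7 (81.1 ± 2.17) and Jun (67.5 ± 7.88) followed with ranges that also overlapped, then Map3k12 (47.4 ± 2.17) and Mapk8 apart from their neighbors, and Map3k13 was lowest at 14.7 ± 1.90 TPM (SD, n = 11). In rNLS8 mice (n = 10) Jun was at 45.8 ± 2.94 TPM, below the 52.6 ± 1.36 TPM of Map3k12. With the longest transcript as length, Mapk10 (173) stood above Mapk9 (160) and Map2k4 (153), and Jun (53.1) below Map3k12 (64.7) already in wild-type mice. Mapk8 was then at 55.6 TPM, above Jun, compared with 35.6 by the union of exons.

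In the fit across all genes, 6 of the 10 genes were past the threshold as lower and 2 as higher, and Map2k7 and Map3k13 were not past it. Over all genes tested, 44.7% were past it, 21.7% lower and 23.0% higher. The groups did not overlap for 2 genes, Mapk9 and Jun, both lower. Over all genes, 3.80% were lower and 3.85% higher without overlap. As the genes were chosen by this contrast, these counts describe them and nothing is read from them. Their median log2 fold change was -0.16, compared with -0.00067 over all genes.

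The batches are parts of the same mice and give no independent support. In batch A alone, Mapk9 and Jun were past the threshold, as were 11.8% of all genes. In batch B alone it was 8 of the 10, and 39.1% of all genes. Fitted separately, Mapk9 was at -1.36 in batch A and -1.24 in batch B, and Mapk10 at -0.23 and -0.41.

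**Figure D3:**
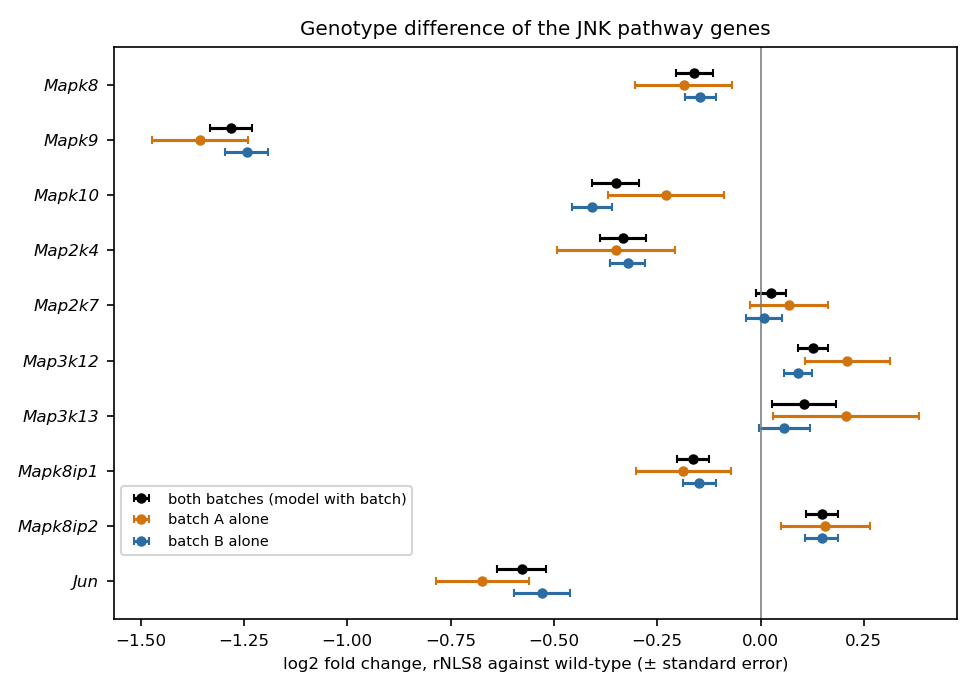
Log2 fold change (rNLS8 against wild-type, x axis) of the 10 genes with its standard error, for both batches together (black), batch A (orange, 7 mice) and batch B (blue, 14 mice). Mapk9 lies below -1 in each, and the error bars of batch A are the widest.

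Whether the genotype difference varied between batches was tested with the interaction term, which the choice of genes did not use. No gene of the pathway passed, with adjusted p values from 0.877 for Mapk9 and Jun upward by edgeR's quasi-likelihood test. The interaction was 0.14 for Mapk9 (p = 0.180) and 0.18 for Jun (p = 0.167, both unadjusted), B minus A. Over all genes 0% passed. At an unadjusted p below 0.05 there were 1030 genes, none of them among the 10, and DESeq2 called 1 gene.

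The batch itself was also independent of the choice of genes. Between batches B and A, 23.3% of all genes differed. Of the 10 pathway genes, 1 passed by edgeR: Mapk8ip1 was lower in batch B by a log2 difference of -0.12 (adjusted p = 0.0349). Map2k4 differed by 0.16 (adjusted p = 0.0555) and Mapk9 by 0.14 (adjusted p = 0.0655). By DESeq2 the adjusted p was 0.0400 for Map2k4 and 0.0464 for Mapk9. For both genes the batch difference on the log2 scale was smaller than the genotype difference.

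How the genes vary together within a group is a further property that the choice did not use. After the means of each genotype and batch were removed, Pearson's r was computed over the 21 mice for all pairs, as a description without p, since all pairs share libraries and scaling. Mapk10 and Map2k4 were the closest pair (r = 0.80, and 0.91 without T61340). Mapk9 and Map3k13 followed (r = 0.69), then Mapk10 and Map3k12 (r = 0.67, and 0.53 without T61340). Mapk8ip1 ran against Map2k4 (r = -0.65), Mapk9 (r = -0.61), Map3k13 (r = -0.58) and Jun (r = -0.52). With Mapk10 its r was -0.32, and -0.71 without T61340. The highest r of Jun was that with Map2k4 (0.35), which was 0.12 without T61333 and 0.56 without T_69527. Mapk9 and Mapk10 were unrelated over all mice (r = 0.055), but r was 0.43 without T61340.

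**Figure D4:**
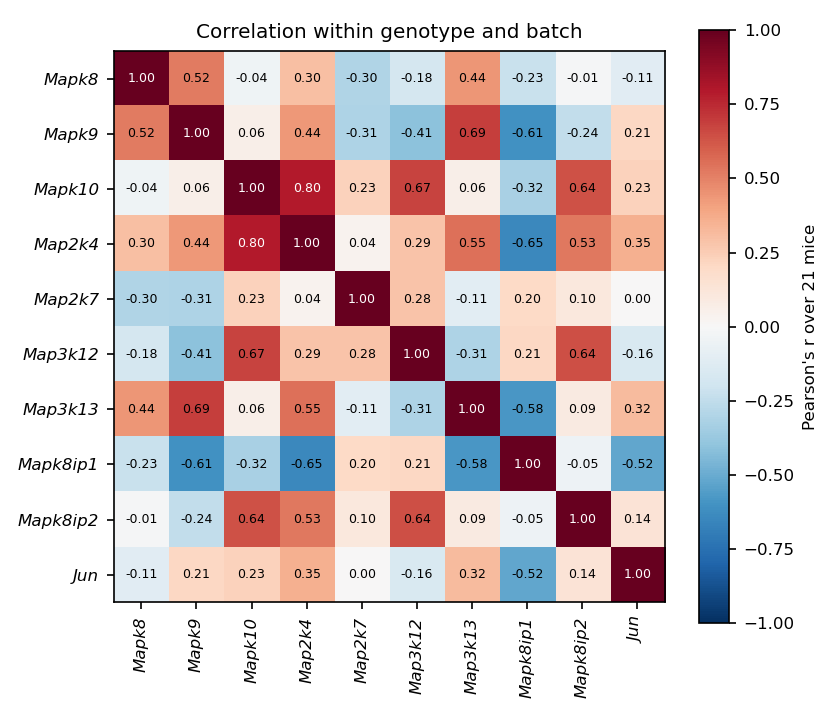
Pearson's r over 21 mice between the 10 genes after the mean of each genotype and batch was removed (color scale from -1 to 1). Mapk10 with Map2k4 is the highest off-diagonal cell (0.80) and Map2k4 with Mapk8ip1 the lowest (-0.65).

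The genes whose variation within groups was most like that of Jun were sought among 14583 tested genes with a mean of at least 50 counts. They were Fosl2 (r = 0.87), an AP-1 partner, Nr4a3 (r = 0.86), an activity-induced nuclear receptor, a copy row of the heat shock gene Hspa1a (0.82), Gtf2a1 (0.79), Sipa1l3 (0.76) and a copy row of Hspa1b (0.76). Without T61340 these values were between 0.76 and 0.92. Between genotypes, 4 of these 6 rows were called, compared with 44.7% of all genes, and 3 were lower, compared with 21.7%: the Hspa1b copy (log2 fold change -0.61, edgeR adjusted p = 1.46e-04), the Hspa1a copy (-0.48, adjusted p = 5.36e-04) and Sipa1l3 (-0.21, adjusted p = 0.0109). Gtf2a1 was higher by 0.23 (adjusted p = 1.50e-04), and Fosl2 (-0.25) and Nr4a3 (-0.36) did not pass.

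The wider pathway was described by 89 other genes in lists by role. Of these, 85 were tested, and 19 were higher and 29 lower in rNLS8 mice, with a median log2 fold change of -0.077. That is 56.5% called, compared with 44.7% of all genes. For 11 of them the groups did not overlap, as they did not for 1396 of all 18248 genes (3.80% lower and 3.85% higher). Sprr1a, Gal, Fosl1 and Batf were left out by the filter on low counts.

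Among 21 further upstream kinases, 6 were higher and 3 lower, or 42.9% called, close to the 44.7% of all genes. Map3k5 (ASK1), a kinase activated by oxidative stress, differed most. It was at 836, 928 and 1078 in wild-type and at 474, 632 and 714 in rNLS8 mice, without overlap (log2 fold change -0.64, SE 0.050, edgeR adjusted p = 3.72e-10). All 3 TAO kinases rose, Taok3 by 0.34 (adjusted p = 5.74e-06), Taok1 by 0.25 (adjusted p = 0.00696) and Taok2 by 0.21 (adjusted p = 4.28e-05). Map3k2 rose by 0.31 (adjusted p = 0.0244), a call lost without T61342, and Map4k5 was lower by -0.34 (adjusted p = 8.33e-05). The mixed lineage kinase Map3k10 was higher by 0.18 (adjusted p = 0.00541), a call lost in the edgeR and DESeq2 fits without batch. In batch A alone, with 7 mice, Map3k5, Taok2 and Map4k5 passed. There Taok3 (0.39, adjusted p = 0.0582), Taok1 (0.18, adjusted p = 0.518), Map3k2 (0.14, adjusted p = 0.766) and Map3k10 (0.25, adjusted p = 0.237) did not pass. With all mice, the Map3k10 relatives Map3k9 (0.0062) and Map3k11 (0.11) did not pass, although Map3k11 did when scaled by total count (0.19, adjusted p = 0.00708). Differences between the relatives were not tested.

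Of 5 regulators of DLK turnover and axon degeneration, 3 were lower and none higher (60.0% called, compared with 44.7% of all genes). Fbxo45 and Mycbp2 (PHR1) form a ubiquitin ligase that removes DLK, and Usp9x is a deubiquitinase that stabilizes it. Fbxo45 was at 1169, 1277 and 1420 in wild-type and at 810, 955 and 1106 in rNLS8 mice, without overlap (log2 fold change -0.41, edgeR adjusted p = 1.35e-07). Usp9x fell by 0.35 (adjusted p = 4.57e-04) and Mycbp2 fell by 0.32 (adjusted p = 0.00353). Sarm1, which executes axon degeneration, and Nmnat2, which holds it off, did not pass (log2 fold change 0.11 and -0.077), although Sarm1 passed as higher when scaled by total count (0.19, adjusted p = 0.00253).

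Of 6 other scaffolds, 1 was higher and 3 lower (66.7% called, compared with 44.7% of all genes). Spag9 (JIP4) was at 7650, 8825 and 10466 in wild-type and at 4290, 7130 and 7996 in rNLS8 mice (log2 fold change -0.36, edgeR adjusted p = 1.69e-04), with T61340 far below the other mice. The POSH family scaffolds Sh3rf3 (-0.31, adjusted p = 2.14e-04) and Sh3rf1 (-0.27, adjusted p = 0.00389) were lower as well. Wdr62, a scaffold known from the mitotic spindle, was higher by 0.76 (adjusted p = 5.52e-04) at a mean of 20.8 normalized counts in wild-type mice. Mapk8ip3 (JIP3), the scaffold related to Spag9, was at 10612 ± 531 (SD, n = 11) and 10316 ± 455 (SD, n = 10) and did not pass (-0.042, SE 0.037).

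Of 8 phosphatases of the JNK pathway, 1 was higher and 3 lower (50% called, compared with 44.7% of all genes). Dusp4, which acts on ERK and JNK in the nucleus, was at 144, 188 and 323 in wild-type and at 63.1, 104 and 151 in rNLS8 mice (log2 fold change -0.92, edgeR adjusted p = 1.67e-06). Dusp22 was higher by 0.32 without overlap (adjusted p = 8.50e-07). Dusp2 (-0.43, adjusted p = 0.0405) and Dusp19 (-0.23, adjusted p = 0.0432) were near the threshold. Of the 21 fits that left out 1 mouse, Dusp2 passed in 6 and Dusp19 in 8, and neither passed without T61340. Without T61340 and T60303 they were at -0.39 (adjusted p = 0.111) and -0.13 (adjusted p = 0.186). The immediate early phosphatase Dusp1 had a log2 fold change of -0.40 and did not pass (adjusted p = 0.113).

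AP-1 genes and other nuclear targets went in both directions, 4 higher and 3 lower of 11 tested. That is 63.6% called, compared with 44.7% of all genes. Atf3, a stress-induced partner of c-Jun, had the largest log2 fold change of these lists. It was at 6.26, 17.7 and 25.7 in wild-type mice and at 52.9, 98.8 and 227 in rNLS8 mice, without overlap (log2 fold change 2.63, SE 0.232, edgeR adjusted p = 2.35e-09). It was 3.43 in batch A and 2.18 in batch B. Elk1, a nuclear JNK and ERK substrate, was higher by 0.50 without overlap (adjusted p = 5.94e-10), and the c-Jun partners Atf7 and Atf2 were higher by 0.45 (adjusted p = 6.60e-06) and 0.14 (adjusted p = 0.0101). The Jun relatives Jund (-0.25, adjusted p = 5.29e-04) and Junb (-0.54, adjusted p = 0.0296) were lower, as was Fos (-0.97, adjusted p = 0.00997). Fos was at -1.49 in batch A and did not pass in batch B (-0.71, adjusted p = 0.110), and it ranged from 177 to 1269 among wild-type mice. Junb passed in 16 of 21 fits that left out 1 mouse, but not without T_69527, T_70267, T61340, T61342 or T61345, and without T61340 and T60303 together it was at -0.55 (adjusted p = 0.0589).

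Genes known to respond to DLK, JNK or Jun after neuronal injury were likewise split, with 5 higher and 2 lower of 13 tested. Of the 13, 53.8% were called, compared with 44.7% of all genes. Chac1 and Ddit3 (CHOP), both also targets of the integrated stress response, did not overlap between groups. Chac1 was at 138, 159 and 239 in wild-type and at 387, 508 and 684 in rNLS8 mice (log2 fold change 1.65, edgeR adjusted p = 1.38e-12). Ddit3 was at 243, 321 and 355 in wild-type and at 573, 673 and 939 in rNLS8 mice (1.22, adjusted p = 2.12e-11). The proapoptotic gene Bbc3 (PUMA) was higher by 0.81 (adjusted p = 1.63e-07), whereas Hrk, another proapoptotic gene, was lower without overlap (-0.62, adjusted p = 2.30e-07). Klf6, a transcription factor of axon growth, was higher by 0.40 (adjusted p = 1.85e-05). Csf1, through which injured neurons signal to microglia, was higher by 0.39 (adjusted p = 2.70e-05), and Gap43, a growth cone protein, was lower (-0.38, adjusted p = 2.77e-06). Regeneration genes Sox11, Adcyap1 and Hspb1 and the proapoptotic gene Bcl2l11 did not pass.

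Of 9 microtubule proteins known as JNK substrates, 7 were lower (77.8%, compared with 21.7% of all genes) and none higher. Most are neuronal proteins, and the summed neuron markers given above were lower in the same mice without overlap; their part in this count was not tested. Stmn1 was at 9921, 11035 and 12162 in wild-type and at 6138, 7209 and 8555 in rNLS8 mice, without overlap (log2 fold change -0.60, edgeR adjusted p = 4.05e-09). Map2 (-0.44, adjusted p = 2.42e-04) and the axonal stathmin Stmn2 (-0.43, adjusted p = 3.71e-07) were lower too. Map1b (-0.25, adjusted p = 0.0135), Stmn3 (-0.17, adjusted p = 0.0176), Mapt (-0.17, adjusted p = 0.00187) and Map1a (-0.12, adjusted p = 0.0457) differed less, and Map1a passed in 7 of 21 fits that left out 1 mouse. Without T61340 and T60303, Map1a (-0.11, adjusted p = 0.108) and Map1b (-0.16, adjusted p = 0.0567) did not pass. When libraries were scaled by total count, 3 of the 9 passed (Stmn1, Map2 and Stmn2). Map2 is also 1 of the neuron markers above.

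The neighboring MAP kinase modules were compared as a reference for the pathway, with 2 of 12 genes higher and 5 lower. Of the 12, 58.3% were called, compared with 44.7% of all genes. Map2k1 (MEK1), which activates ERK, was at 4853, 5290 and 5801 in wild-type and at 3041, 3495 and 3983 in rNLS8 mice, without overlap (log2 fold change -0.62, SE 0.049, edgeR adjusted p = 4.24e-10). Mapk14 (p38 alpha) was also lower without overlap (-0.42, adjusted p = 1.05e-07). Map2k6 (-0.39, adjusted p = 1.17e-04) and Mapk11 (-0.33, adjusted p = 0.00288) were lower, whereas Mapk3 (ERK1) did not pass (0.10) except when scaled by total count (0.17, adjusted p = 0.0196). Of the ERK5 module, Map2k5 was higher by 0.22 (adjusted p = 0.00198) and Mapk7 by 0.29 (adjusted p = 0.0103). Neither passed in batch A alone, and Mapk7 did not pass in batch B alone (0.20, adjusted p = 0.142) or without T61340 and T60303 (0.24, adjusted p = 0.0560). Differences between these modules and the JNK genes were not tested.

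**Figure D5:**
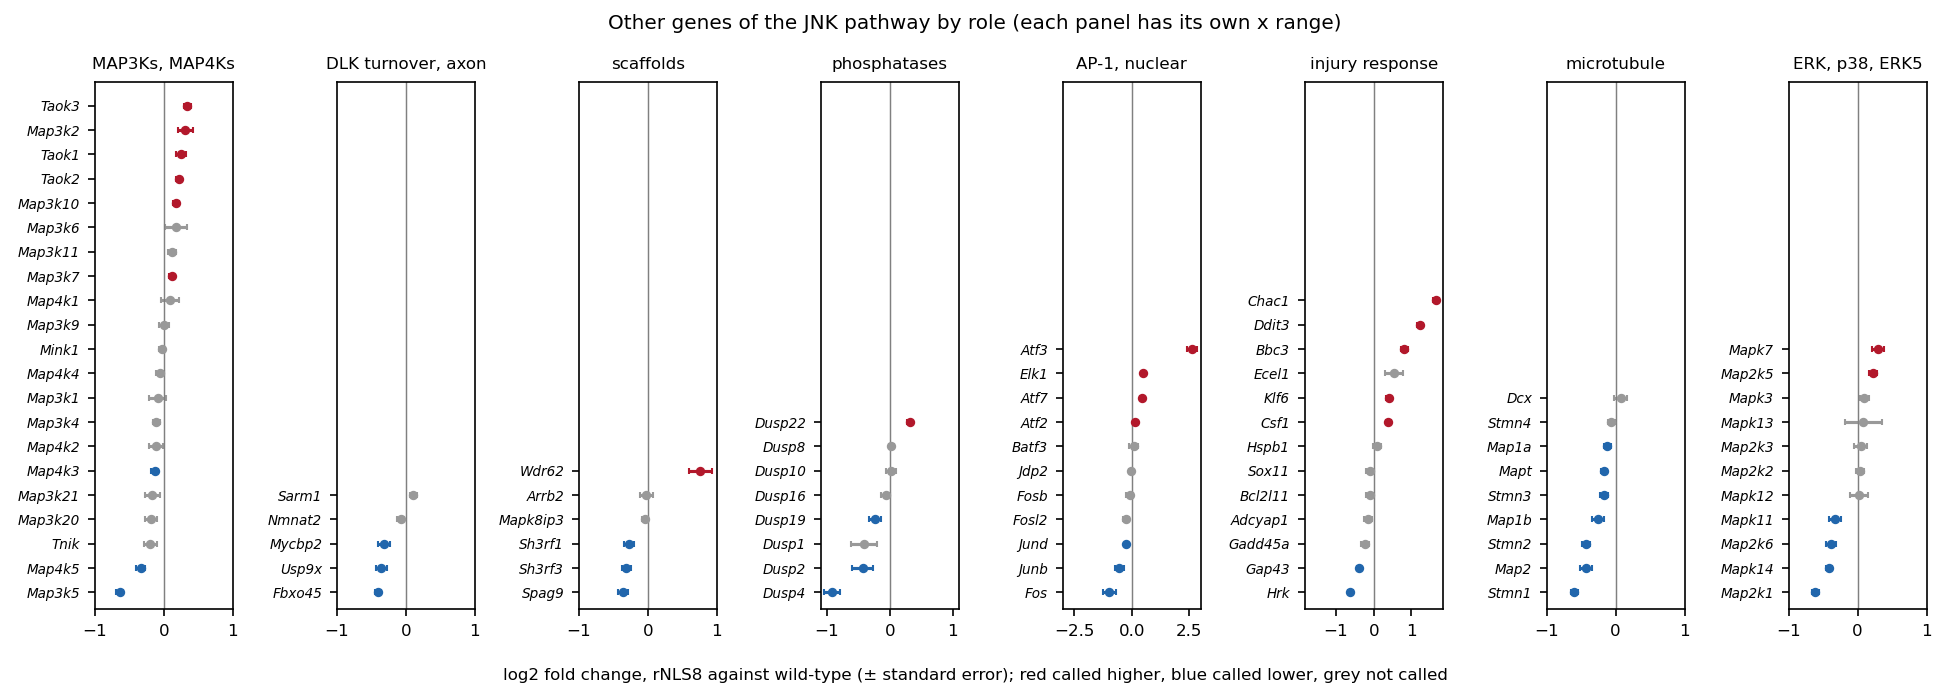
Log2 fold change (rNLS8 against wild-type, x axis, each panel with its own range) with standard error for the reported genes of the wider lists that were tested, by role; red passed the test as higher, blue as lower, grey did not pass. Atf3 (2.63) and Chac1 (1.65) lie furthest to the right, Fos (-0.97) and Dusp4 (-0.92) furthest to the left.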

How the data were processed

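Bulk RNAseq was done on neocortex of 11 wild-type and 10 rNLS8 mice in batches A and B. According to the study's methods, RNA with RIN above 7 was sequenced at BGI and aligned to GRCm38, and per the labels the reads were paired-end, 100 bp. The submitters' processing notes name HISAT, HISAT2, Bowtie, Bowtie2 and RSEM without saying what each did, so which program counted the reads, and with which strand setting, is not given in the sources used here. The authors deposited whole-number counts per gene symbol, without normalization, in 48474 rows, of which 13329 had no count and 2553 were further copies of a symbol. None of the 10 pathway genes had a copy row. Counts over the lists include a gene that is not reported here.

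The test was edgeR's quasi-likelihood test (edgeR 4.0.16, R 4.3.3) on genes kept by filterByExpr (minimum count 10, minimum total 15), with TMM scaling and genotype and batch as terms. P values were two-sided and adjusted by Benjamini-Hochberg over all genes tested, and a gene passed at 0.05. Standard errors were the log2 fold change divided by the square root of F. Replicates are separate mice. The script was tested on simulated data. TPM used GENCODE exon lengths, available for 34869 symbols.

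The 10 genes and the lists by role were chosen with earlier results of these data known. Named were the 10 genes, up to the 6 largest called changes of each list and its untested genes, the 6 genes most like Jun, Tardbp and marker genes; others were added where they complete a family, after their values were seen. Alternatives were DESeq2 1.42.0, fits without batch, other scalings and filters, each batch alone, the level of Xist as covariate, no copy rows and leaving out each mouse. Precision is limited by the number of mice and by counting error at the depths given.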

Additional observations from a re-analysis of the deposited data

Results flagged for a closer look

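Among 52 named genes with a group of 10 rNLS8 mice, 7 had 1 rNLS8 mouse whose gap to its nearest neighbor was large compared with the range of the group (Dixon's ratio), and 1 of the 7 was among the 10 pathway genes. Chance alone gives about 1 in 20 groups. The same mouse, T61340 of batch A, was the extreme value in 5 of the 7 genes.

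For Map3k12 (ratio 0.637), T61340 was at 2705 and the next mouse at 2422. For Stmn3 (ratio 0.597), T61340 was also the highest, at 9018 compared with 6786. T61340 was the lowest mouse for Spag9 (ratio 0.659, 4290 compared with 6733), Map3k2 (ratio 0.601, 327 compared with 685) and Dusp19 (ratio 0.563, 135 compared with 198). Csf1 was highest in T60303 (ratio 0.495, 821 compared with 685), and Klf6 was highest in T61342 (ratio 0.485, 1837 compared with 1538). Without T61340 and T60303, the log2 fold changes of Map3k12, Map3k2, Spag9, Stmn3 and Csf1 were 0.11, 0.44, -0.29, -0.20 and 0.32 and all passed, whereas Dusp19 did not (-0.13, edgeR adjusted p = 0.186).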

How the results depend on the processing

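The number of genes past the threshold was 8154 with all mice. In separate fits, each with its own set of tested genes, it was 2195 in batch A alone and between 7805 (without T60303) and 8363 (without T61340) when 1 mouse was left out. The pathway genes were 6 lower and 2 higher in every such fit. In batch A alone, 2 were lower and 0 higher, and the lists had 3 upstream kinases, 0 DLK regulators, 1 scaffold, 1 phosphatase, 4 AP-1 genes, 6 injury-response genes (7 with all mice), 1 microtubule gene and 2 other MAP kinase genes; the 7 mice are fewer than the 21. With 1 mouse left out, Mapk9 ranged from -1.30 to -1.25 and Jun from -0.60 to -0.54. Scaling by total count only left 3 microtubule genes and moved Mapk8 (-0.084), Mapk8ip1 (-0.087) and Map2k7 (0.10) across the threshold. Sarm1, Map3k11, Mapk3, Dusp8 and Ecel1 passed as higher under it and not in the main test, Junb, Dusp2, Dusp19 and Map4k3 lost their calls, and 67.9% of called genes were higher, compared with 51.4%. The count of phosphatases was 2 without a filter, in batch B alone and without T61340 and T60303, and 2 to 4 with 1 mouse left out. Without that pair, an alternative added after the data were seen, calls were lost for Dusp2, Dusp19, Junb, Map1a, Map1b and Mapk7, as given above, and for Map4k3 (-0.083, edgeR adjusted p = 0.185). The interaction gave 1 gene by DESeq2 and 0 to 1 with 1 mouse left out (1 without T60303, T61345 or T61333). With 1 mouse left out, the interaction turned sign for Map2k4 (-0.053 to 0.18), Mapk8ip2 (-0.024 to 0.069), Mapk8 (-0.019 to 0.22), Map2k7 (-0.067 to 0.024) and Map3k13 (-0.26 to 0.089), none of which passed. The causes were not tested. No paired analysis was possible because the labels give mouse names and no replicate numbers shared between genotypes. Low depth limits Sprr1a, Gal, Fosl1 and Batf, which the filter on low counts left out of the main test.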
